A study of Mus musculus with 12 samples.

Results

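Tumour-associated macrophages (TAMs) made to overexpress miR-511-3p were compared with TAMs that overexpressed a mutated form of the same microRNA. The comparison was defined by the sample titles and took 6 of the 12 libraries of the series, 3 with miR-511-3p and 3 with mutated miR-511-3p. Both groups came from C57BL/6 mice carrying Lewis lung carcinoma, a transplantable mouse lung tumour, under the skin. The labels call the cells positive for F4/80, which marks mouse macrophages on their surface. The titles also carry the name SFFV, a viral promoter used in gene-transfer vectors to drive a transgene. The labels do not say which cells received the vector, what share of the sorted cells carried it, which bases were mutated, or the age or sex of the mice. They also do not say that replicates came from separate mice, so p-values measure only how these libraries vary, and that variation may be technical. The 6 libraries not compared here were F4/80+ TAMs sorted for MRC1 or for CD11c, with no overexpression named.

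A microRNA is a short RNA that guides Argonaute proteins to messenger RNAs whose 3′ UTR pairs with its seed, the bases near its 5′ end, and the paired messengers are then degraded or translated less. The Mir511 gene lies within an intron of Mrc1, the gene of the mannose receptor, a marker of TAMs of the alternatively activated, perivascular kind. Rock2, a kinase that drives actomyosin contraction, has been described as a target of miR-511-3p.

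The mature strand and its hairpin are shown first because the seed defines which transcripts could pair with it. In the RefSeq annotation of GRCm38.p6 the mature strand lies on the plus strand at chr2:14261051-14261072, and the hairpin at chr2:14261003-14261081. Capitals mark the seed, bases 2 to 8, in the mature strand, and the mature strand within the hairpin.
mmu-miR-511-3p: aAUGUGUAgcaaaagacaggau
Mir511 hairpin: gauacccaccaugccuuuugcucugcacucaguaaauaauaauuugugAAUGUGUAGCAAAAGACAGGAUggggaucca
Only 1 mature mouse microRNA in the RefSeq table has this seed.

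Transcripts were searched on the sense strand of the longest 3′ UTR of each gene in GENCODE M21. An 8mer site is TACACATA, a 7mer-m8 site is TACACAT without the final A, a 7mer-A1 site is ACACATA without the leading T, and a 6mer site is ACACAT alone. Each gene was placed in the class of its best site. Sites of Rock2 are shown because of its standing as a target. The others are examples from the 8mer genes named for low p in one direction or the other. Not every site is shown. Rock2 also holds 7mer-A1 sites at UTR bases 99 to 105 and 464 to 470. The sites of Zfp65 and the 7mer sites of Tnrc6b and Shoc2 are left out. Capitals mark the site, with 10 bases on each side.
Rock2, 8mer at UTR bases 469 to 476: tgtacacacaTACACATAaaacacattg
Rock2, 7mer-m8 at UTR bases 534 to 540: ttattttttaTACACATtaatcagcta
Rock2, 7mer-m8 at UTR bases 1899 to 1905: atgtcaagttTACACATgaataattga
Tnrc6b, 8mer at UTR bases 283 to 290: gtgaagcaagTACACATAccatttaaat
Arhgap35, 8mer at UTR bases 1448 to 1455: acaaatgtgtTACACATAaatgttttcc
Shoc2, 8mer at UTR bases 1476 to 1483: gaatgactatTACACATAaggaaatatt
Tfpi, 8mer at UTR bases 580 to 587: cctgtaattaTACACATAatcattggcc
Ccne2, 8mer at UTR bases 1540 to 1547: gtcacagtagTACACATAactcaaagtt
Acat1, 8mer at UTR bases 387 to 394: cagccaagaaTACACATAgaagtagaaa

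Between 22906418 and 27890433 reads per library were counted to genes. The macrophage genes Adgre1, which encodes F4/80, and Csf1r, the receptor of macrophage colony-stimulating factor, were both abundant in all 6 libraries. In CPM, counts scaled to a common depth with TMM factors, Adgre1 spanned 1031 to 1371 under miR-511-3p and 1068 to 1124 under the mutated form, and Csf1r 1613 to 1657 and 1524 to 1804. Itgax, which encodes CD11c, was at 216, 119 and 205 CPM against 303, 169 and 108 CPM, and all 3 genes overlapped between the groups. The mutated library 3 stood apart: 172 genes were at least 2-fold above every other library in it, against 0 to 10 in the other 5 libraries. On the first principal component of the 500 most variable genes, with 68.9% of their variance, it lay at 35.0 and the others between -18.7 and 4.5. Among the genes highest in it were Igkc, an immunoglobulin light chain, at 13.6 CPM against 0 to 1.21 CPM elsewhere, and Cd8a, of cytotoxic T cells, at 5.55 CPM against 0.226 to 0.995 CPM. The summed B cell markers were not highest in it, at 103 CPM against 119 CPM in mutated replicate 1 and 132 CPM in miR-511-3p replicate 3. Many of the counts, list medians and gene values are therefore also given for the 5 libraries without mutated replicate 3.

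The targeted microRNA gene was checked first. In miR-511-3p replicates 1, 2 and 3, 66, 63 and 80 reads were counted to Mir511, and in mutated replicates 1, 2 and 3 there were 3, 9 and 5. All 3 miR-511-3p libraries lay above all 3 mutated libraries. Per read counted to genes, the 209 reads under miR-511-3p were 12.01 times the 17 under the mutated form (exact 95% interval 7.32 to 21.0, counting error only), and 11.8 times without mutated replicate 3. In TMM CPM the level was 2.75 ± 0.34 (SD, n = 3) against 0.23 ± 0.14 (SD, n = 3). The exact two-sided permutation test over libraries gave p = 0.10, the smallest that 3 against 3 can give. The edgeR quasi-likelihood test gave a log2 fold change of 3.56 ± 0.39 (SE) with an unadjusted p of 3.43e-05 and a Benjamini-Hochberg adjusted p of 0.4821, the lowest of all genes. DESeq2 called it with an adjusted p of 2.888e-08, and edgeR fitted over all 12 libraries with an adjusted p of 0.04735. Without mutated replicate 3 DESeq2 still called it, but edgeR over the remaining libraries of the 4 groups called 0 genes, with a lowest adjusted p of 0.3384, and the edgeR test of 5 libraries gave Mir511 an adjusted p of 0.9996. These reads come from the hairpin's gene in libraries of fragmented RNA and are not a level of the mature strand. Whether reads of the mutated hairpin align to the gene was not tested.

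Set against the host gene, Mir511 had 11.9 reads per 10000 Mrc1 reads under miR-511-3p and 1.19 under the mutated form. The ratio was 9.983 (exact 95% interval 6.09 to 17.5, counting error only), with an exact permutation p of 0.10. In the sorted libraries without overexpression it was 2.01 per 10000 in MRC1+ and 1.13 in CD11c+ TAMs. These sets are unlike in make-up, since reads over no gene were 19.7% to 26.6% in the sorted libraries and 7.64% to 10.4% in the 6 compared here, and the part of this in the ratio was not tested. Mrc1 itself was at 2482, 2507 and 1959 CPM under miR-511-3p and at 1961, 1972 and 1751 CPM under the mutated form. The groups overlapped, since the third miR-511-3p library was below mutated replicates 1 and 2. The log2 difference was 0.29 ± 0.12 (SE), with an edgeR unadjusted p of 0.0387 and an adjusted p of 0.9999, and 0.24 without mutated replicate 3.

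**Figure D1:**
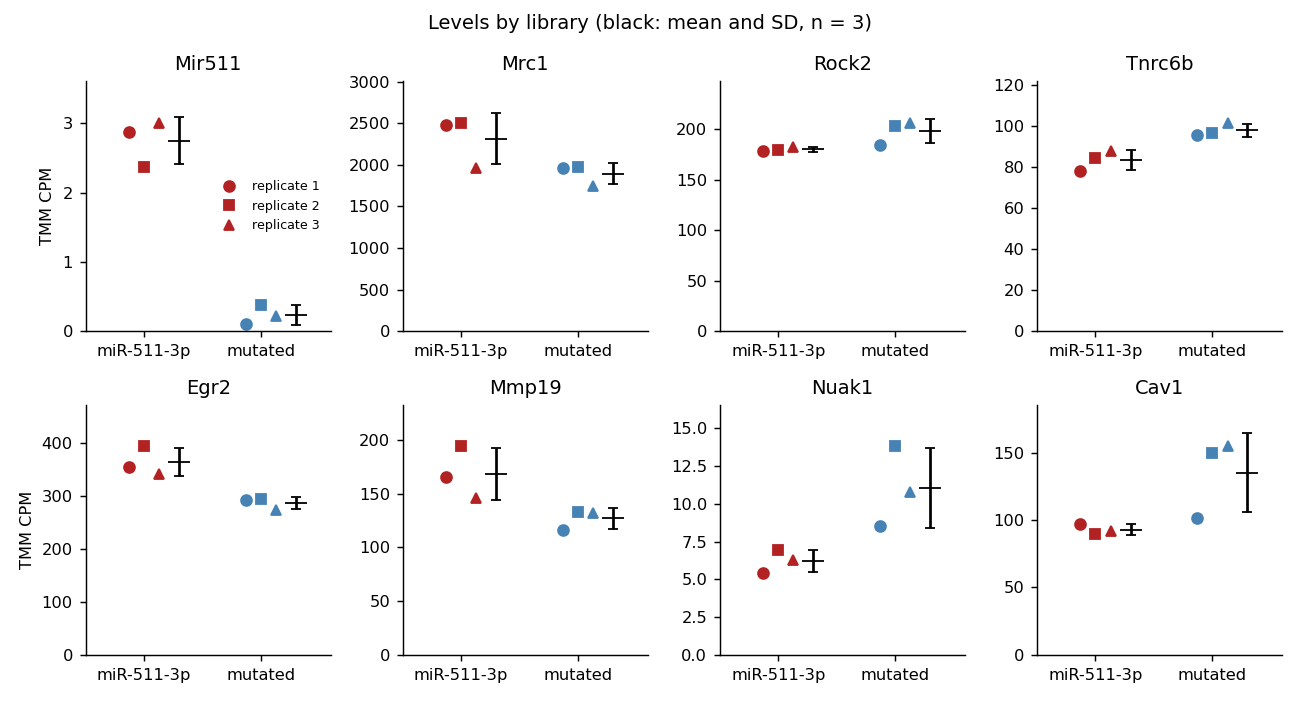
Levels in TMM CPM of Mir511, Mrc1, Rock2, Tnrc6b, Egr2, Mmp19, Nuak1 and Cav1 in the 3 miR-511-3p (red) and 3 mutated (blue) libraries, with the marker shape giving the replicate number and black bars the mean and SD. Mir511 was separated by 12.01-fold in reads per counted read, Mrc1 overlapped between the groups, and the other 6 genes did not overlap. All of these 6 but Rock2 were named for their low p in these libraries.

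No gene passed an adjusted p of 0.05 in the edgeR test of all 6 libraries, 0 of 14054, nor in that of 5 libraries, 0 of 14297. An unadjusted p under 0.05 was reached by 82 genes in the higher direction, 0.583% of those tested, and by 261 in the lower direction, 1.86%. Without mutated replicate 3 the numbers turned round, to 282 higher, 1.97%, and 137 lower, 0.958%. DESeq2 called 1 gene in the 6 libraries, Mir511, and 11 in the 5. The count of genes at or below a log2 fold change of -1 was 353 with all 6 libraries, 2.51%, and 45 without mutated replicate 3, 0.315%.

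A fit that blocks on the replicate number is given beside these counts. The labels name no pairing, and it was read from these same counts. Deviations of same-numbered libraries correlated across genes at 0.147, 0.258 and 0.462. For replicate 1 this is weak, since miR-511-3p replicate 1 correlated slightly better with mutated replicate 2, at 0.166. The blocked values are therefore not independent support for a difference. With the block, 189 genes had an unadjusted p under 0.05 in the higher direction, 1.34% of those tested, and 622 in the lower, 4.43%. It called 1 gene, 0.00712%, namely Hspg2, which encodes perlecan, a heparan sulfate proteoglycan of basement membranes. Hspg2 was at 17.4, 15.4 and 49.7 CPM under miR-511-3p and 47.2, 41.7 and 122 CPM under the mutated form, and was named after its values were seen. The groups overlapped, but within each number the miR-511-3p library was the lower. The blocked edgeR log2 fold change was -1.39 ± 0.06 (SE) with an adjusted p of 0.02707, against an adjusted p of 0.9999 without the block. Unblocked, the log2 fold change was -1.35, and -0.69 without mutated replicate 3. Leaving mutated replicate 3 out, the blocked fit called 0 genes, with 325 higher, 2.27%, and 433 lower, 3.03%, at an unadjusted p under 0.05. In that fit miR-511-3p replicate 3 has no partner, so the group difference rests on the libraries numbered 1 and 2.

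Rock2 was at 178, 180 and 183 CPM under miR-511-3p and at 185, 203 and 207 CPM under the mutated form. All 3 miR-511-3p libraries lay below all 3 mutated libraries, as did 504 genes, 3.59% of those tested. The log2 difference was -0.14 ± 0.06 (SE), 95% interval -0.29 to 0.01, with an edgeR unadjusted p of 0.0658 and an adjusted p of 0.9999. Without mutated replicate 3 it was -0.11, with an edgeR unadjusted p of 0.176. Over the 15 alternatives the log2 difference of Rock2 stayed between -0.19 and -0.10. Myh9, the heavy chain of non-muscle myosin IIA, was at 1808, 1702 and 1872 CPM against 1924, 1964 and 1766 CPM, and the groups overlapped. Myl9, a myosin regulatory light chain, was under 2 CPM in all 6 libraries and also overlapped.

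Genes with an 8mer site in the 3′ UTR read slightly lower under miR-511-3p as a class. An 8mer was found in 530 of 11901 genes with a measured level and a 3′ UTR, 4.45%, and their median log2 fold change was -0.031. It was -0.012 for the 966 genes with a 7mer-m8 site, -0.012 for the 878 with a 7mer-A1 site, -0.0046 for the 1898 with a 6mer and 0.0076 for the 7629 with no site. Below 0 lay 65.7% of the 8mer genes, 45.9% of the genes with no site and 49.4% of all. An unadjusted p under 0.05 in the lower direction was reached by 23 of the 8mer genes, 4.34%, beside 2.03% of all genes with a 3′ UTR. These are descriptions with no test, and the differences are of a few hundredths on the log2 scale.

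The 8mer class was set against the genes with no site in each library. The median log2 CPM deviation of the 8mer genes from their mean over 6 libraries, less that of the genes with no site, was -0.018, -0.023 and -0.024 in miR-511-3p replicates 1, 2 and 3. It was 0.011, 0.010 and 0.036 in the mutated replicates. The groups did not overlap. Without mutated replicate 3 the 8mer median was -0.032 and that of genes with no site -0.0002, and 58.8% of the 8mer genes lay below 0 beside 52.3% of all. Within same-numbered libraries the 8mer medians were -0.034, -0.034 and -0.051, beside -0.0007, 0.0002 and 0.013 for no site. The classes between these did not keep their order in every library. In miR-511-3p replicate 1 the 7mer-m8 deviation, -0.015, was below that of the 8mer, -0.012, and in the second pair the 7mer-m8 median, 0.0014, was above that of no site.

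Site class goes with UTR length, since 8mer genes had a median UTR of 2692 bases and genes with no site 768 bases. An 8mer was present in 0.807% of the genes with the shortest UTRs and in 9.53% of those with the longest, in 3 bins of 3967 genes. From the shortest to the longest bin the 8mer medians were -0.013, -0.022 and -0.034, and those of genes with no site 0.016, 0.0053 and -0.0043. The 8mer genes were the lower in each bin. In the shortest bin the value rests on 32 genes, and without mutated replicate 3 it was 0.012 over 33 genes, beside 0.010 for no site. The part of UTR length in the class difference was not tested further.

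**Figure D2:**
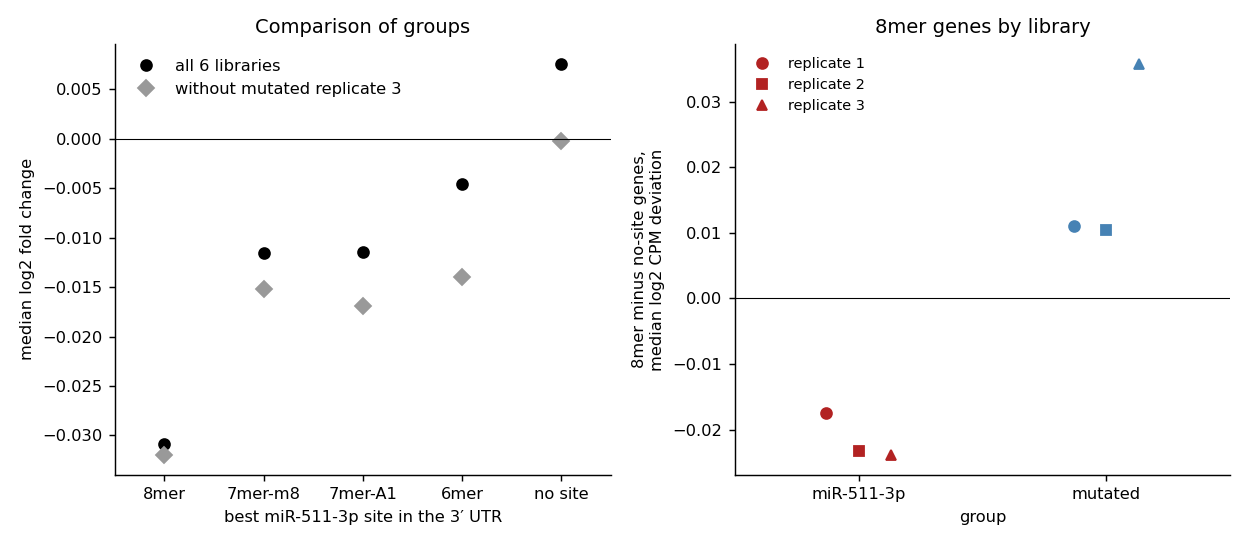
Left, median log2 fold change by the best miR-511-3p site in the 3′ UTR with all 6 libraries (black) and without mutated replicate 3 (grey). Right, the median log2 CPM deviation of 8mer genes less that of genes with no site in each library, which was below 0 in the 3 miR-511-3p libraries and above 0 in the 3 mutated libraries.

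Among single 8mer genes with a mean of 5 CPM or more in the higher group, Tnrc6b had the lowest p. It encodes a GW182 protein, the partner of Argonaute in silencing. Its levels were 78.1, 84.6 and 88.1 CPM under miR-511-3p and 95.6, 96.5 and 102 CPM under the mutated form, with no overlap. The log2 difference was -0.23 ± 0.06 (SE), with an edgeR unadjusted p of 0.00907 and an adjusted p of 0.9999. Arhgap35, a GTPase-activating protein, was at 29.4, 26.4 and 29.0 CPM against 33.8, 32.5 and 33.3 CPM. Shoc2, a scaffold of Ras to Raf signalling, was at 77.2, 84.1 and 74.4 CPM against 89.4, 96.2 and 87.7 CPM. Both separated the groups, as did 504 genes in this direction, 3.59% of those tested. Tnrc6b, Arhgap35 and Shoc2 were chosen by low p in these same libraries, so their separation is no further support. Tfpi, the tissue factor pathway inhibitor, was at 12.8, 7.41 and 10.8 CPM against 16.5, 15.5 and 16.1 CPM, a log2 difference of -0.63 ± 0.19 (SE), and Zfp65 differed by -0.32.

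Other 8mer genes lay the opposite way. Ccne2, the S-phase cyclin E2, was at 22.0, 22.1 and 21.4 CPM under miR-511-3p and at 19.6, 16.7 and 20.3 CPM under the mutated form. Acat1, a mitochondrial acetyl-CoA acetyltransferase, was at 82.3, 79.4 and 76.2 CPM against 73.3, 73.2 and 72.0 CPM. In both the groups did not overlap, and the log2 differences were 0.21 and 0.12. Of all genes tested 2.79% did not overlap in this direction, and both were chosen by low p in these same libraries. With the same cut on level, Pgm3, Stradb and Zcchc2 were the other 8mer genes of lowest p in this direction, at 0.10 to 0.17.

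Among the genes of lowest p in the higher direction were Egr2, Etl4, Plk3, Jag2, Mmp19, Cass4, Mospd3, Ppp1cc and Nfkbid. In these 9 genes the 2 groups did not overlap, which 392 genes, 2.79% of those tested, showed in this direction. Genes chosen by low p in these same libraries tend to separate in this way. None of the 9 had a miR-511-3p site in its UTR, as was so for 64.1% of all genes with a 3′ UTR. Their UTRs ran from 332 to 2315 bases. Egr2, a zinc-finger transcription factor of activated macrophages, was at 355, 393 and 342 CPM under miR-511-3p and 291, 295 and 273 CPM under the mutated form. Its log2 difference was 0.34 ± 0.07 (SE), with an edgeR unadjusted p of 0.00232 and an adjusted p of 0.9999. Mmp19, a secreted matrix metalloproteinase, was at 166, 194 and 146 CPM against 116, 133 and 132 CPM. Its log2 difference was 0.41 ± 0.11 (SE), with an edgeR unadjusted p of 0.00839 and an adjusted p of 0.9999.

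Etl4 had the greatest fold among these 9 genes. Its levels were 5.65, 5.002 and 5.64 CPM against 2.91, 2.29 and 1.153 CPM, a log2 difference of 1.35 ± 0.31 (SE), and 1.06 without mutated replicate 3. Jag2, a ligand of Notch, was at 10.7, 9.97 and 10.8 CPM against 7.03, 6.99 and 8.92 CPM. Nfkbid, a nuclear inhibitor-kappa-B protein, and Cass4, an adhesion scaffold, differed by 0.30 and 0.33. The kinase Plk3 and the phosphatase subunit Ppp1cc differed by 0.21 and 0.24.

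Genes with a mean of 5 CPM or more in the higher group were ranked by p in the lower direction. This left out Ace, at 3.73 CPM under the mutated form, with an edgeR unadjusted p of 0.00214 and an adjusted p of 0.9999. The 10 of lowest p were Uaca, Nuak1, Apoc2, Chst11, Nfia, Tacc2, Tnrc6b, Cav1, Neo1 and Dsel. None overlapped between the groups, which 504 genes, 3.59% of those tested, showed in this direction. As these genes were chosen by low p in the same libraries, that separation is no further support. Tnrc6b held an 8mer, Nuak1 and Nfia a 7mer-m8 and Chst11 a 7mer-A1 as their best site, and the other 6 had none. Of all genes with a 3′ UTR, 4.45% held an 8mer, 8.12% a 7mer-m8 and 7.38% a 7mer-A1 as best site. The genes with a site here had long UTRs, 3341 to 11609 bases, beside a median of 1173 over all. The part of UTR length was not tested. Nuak1, a kinase related to AMPK, was at 5.44, 6.92 and 6.28 CPM under miR-511-3p and 8.56, 13.8 and 10.8 CPM under the mutated form. Its log2 difference was -0.83 ± 0.19 (SE), with an edgeR unadjusted p of 0.00331 and an adjusted p of 0.9999. Cav1, the coat protein of caveolae, was at 97.2, 89.7 and 91.6 CPM against 101, 150 and 155 CPM, with mutated replicate 1 close to the miR-511-3p libraries. The log2 difference of Cav1 was -0.54, and -0.43 without mutated replicate 3. Apoc2, an activator of lipoprotein lipase, was at 6.70, 6.996 and 6.46 CPM against 10.9, 9.27 and 8.63 CPM. Chst11 and Dsel both encode enzymes that modify chondroitin or dermatan sulfate chains, and they differed by -0.77 and -0.36. Without mutated replicate 3 these values were -0.63 and -0.38. Neo1, the receptor neogenin, and Nfia, a transcription factor, differed by -0.73 and -0.37, and by -0.505 and -0.357 without that library.

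Without mutated replicate 3 a different set of genes had the lowest p, again at 5 CPM or more in the higher group. These turned on that library. Higher were Ppia, Gm17024, 4833420G17Rik, Etl4, Ccnl2, 4930503L19Rik, Ccnl1, Rpl10, Gm16091 and Zc3h7a. Ccnl1, a cyclin that works with splicing kinases, was at 357, 384 and 386 CPM under miR-511-3p, at 247 and 281 CPM in mutated replicates 1 and 2, and at 410 CPM in mutated replicate 3. Its relative Ccnl2 was at 157, 157 and 173 CPM, at 122 and 114 CPM, and at 186 CPM in mutated replicate 3. In 9 of these 10 genes mutated replicate 3 was above the lowest miR-511-3p library, and Etl4 was the one that still separated the groups with all 6 libraries. With 6 libraries the log2 difference of Ccnl1 was 0.27 ± 0.18 (SE), and with 5 it was 0.51 ± 0.09 (SE), with an edgeR adjusted p of 0.9996. Counts of Ppia and Rpl10, which have near-identical copies in the genome, are uncertain because reads aligned to several places were not counted.

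Lower in the 5 libraries, by the same rule, were Adgrl2, Cd82, Cd300a, Sorbs3, Apoc2, Carmil1, Tnfrsf21, Trib3, Nuak1 and Myo10. Cd300a, an inhibitory receptor of myeloid cells, was at 113, 114 and 121 CPM under miR-511-3p, at 155 and 143 CPM in mutated replicates 1 and 2, and at 97.9 CPM in mutated replicate 3. Cd82, a tetraspanin, was at 69.6, 65.7 and 70.9 CPM against 86.8, 87.1 and 73.0 CPM and separated the groups with all 6 libraries too. Trib3, a pseudokinase of the stress response, was at 4.13, 4.10 and 5.52 CPM against 8.24, 7.20 and 5.76 CPM. It also separated all 6 libraries, as did Sorbs3, Apoc2 and Nuak1. Tnfrsf21 held an 8mer site, but in mutated replicate 3 it was below all miR-511-3p libraries.

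**Figure D3:**
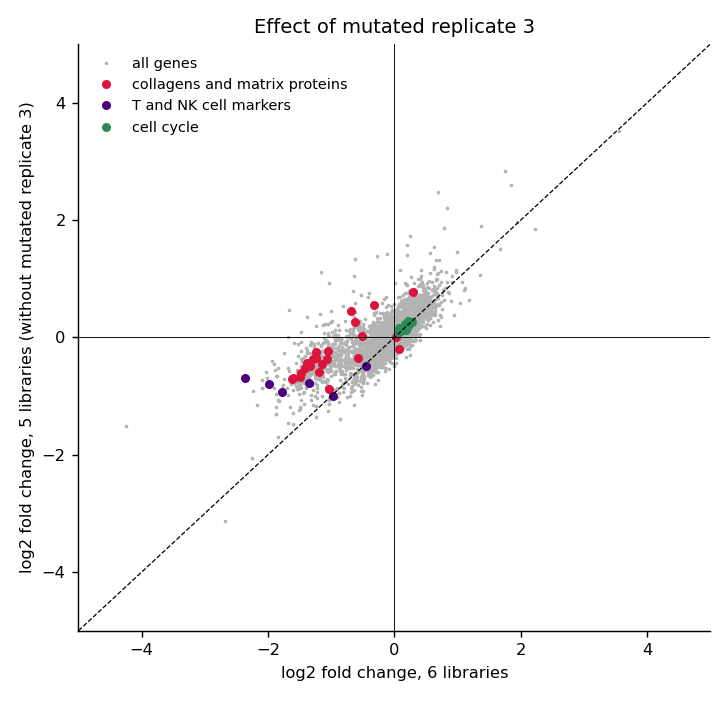
Log2 fold change of each gene with all 6 libraries against that without mutated replicate 3 (grey points; the dashed line marks equal values), with collagen and matrix, T and NK cell and cell cycle genes coloured. The matrix genes had a median of -1.10 on the horizontal axis and -0.36 on the vertical axis, while the cell cycle genes had 0.16 and 0.17.

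Collagens and other matrix proteins, which build the tumour stroma and its basement membranes, lay mostly lower under miR-511-3p. Of the 24 genes of this list, 20 were below 0 under miR-511-3p, against 48.7% of all genes, and 8 reached an unadjusted p under 0.05 in the lower direction, against 1.86% of all genes. The median was -1.10, beside 0.003 over all genes, and 0 were called by edgeR. Leaving out mutated replicate 3 gave a median of -0.36, with 17 below 0 and 0 at an unadjusted p under 0.05, beside 50.8% of all genes below 0. Within same-numbered libraries 19 of the 24 were lower under miR-511-3p in all 3 pairs, 79.2%, beside 13.3% of all genes, with medians of -0.998, -0.950 and -1.27. With the replicate block 19 had an unadjusted p under 0.05, all in the lower direction, which 4.43% of all genes had, and the lowest edgeR adjusted p was 0.09451. That pairing was read from these same counts.

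Col6a3, a chain of microfibrillar type VI collagen, was at 9.79, 10.1 and 24.5 CPM under miR-511-3p and at 22.9, 25.2 and 86.9 CPM under the mutated form. Nid1, the basement membrane linker nidogen, was at 22.8, 21.2 and 49.2 CPM against 57.7, 41.0 and 166 CPM. Lum, the collagen-binding proteoglycan lumican, was at 3.13, 1.81 and 5.34 CPM against 4.90, 6.39 and 20.3 CPM. In each of these genes the third library was the highest of its group, and the groups overlapped in the range but not within a number. The blocked log2 differences were -1.48 ± 0.13 (SE), -1.36 ± 0.16 (SE) and -1.49 ± 0.28 (SE), with edgeR adjusted p of 0.09928, 0.1021 and 0.2488. Unblocked, the 3 differences went from -1.60, -1.50 and -1.61 to -0.70, -0.67 and -0.72 without mutated replicate 3. Col18a1, the precursor of endostatin, was at 27.3, 17.6 and 24.4 CPM against 26.6, 32.4 and 44.6 CPM, and was higher under miR-511-3p in the first pair. Its difference was -0.58, and -0.35 without mutated replicate 3. Fn1 and Tgfbi, matrix genes that macrophages also express, were named after their values were seen: Fn1 spanned 571 to 2851 CPM under miR-511-3p and 809 to 2584 CPM under the mutated form, and Tgfbi 1751 to 1972 and 1782 to 1895 CPM.

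Fibroblast and pericyte markers moved with the matrix genes and share Col1a1, Col1a2, Col3a1, Dcn, Lum and Postn with that list. Their summed level was 129.2, 115.9 and 305.6 CPM under miR-511-3p and 228, 214 and 709 CPM under the mutated form, and none of the 14 genes was at 0 reads in any library. Of the 13 measured, 12 were below 0, beside 48.7% of all genes, with a median of -0.87, and -0.46 without mutated replicate 3. Pdgfrb, a receptor of pericytes and fibroblasts, was at 0.870, 1.02 and 1.804 CPM against 2.45, 2.03 and 5.85 CPM, with no overlap. Its log2 difference was -1.47 ± 0.48 (SE), with an edgeR unadjusted p of 0.0175 and an adjusted p of 0.9999, and -0.86 with an unadjusted p of 0.0454 without mutated replicate 3. In this bulk RNA, fewer cells of a type and less RNA per cell cannot be told apart. When the mean level of the fibroblast markers was entered as a covariate, an alternative added after seeing the data, edgeR called 0 genes. An unadjusted p under 0.05 was then reached by 2.19% of genes in the higher direction and by 232 genes, 1.65%, in the lower, against 0.583% and 1.86% without the covariate.

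**Figure D4:**
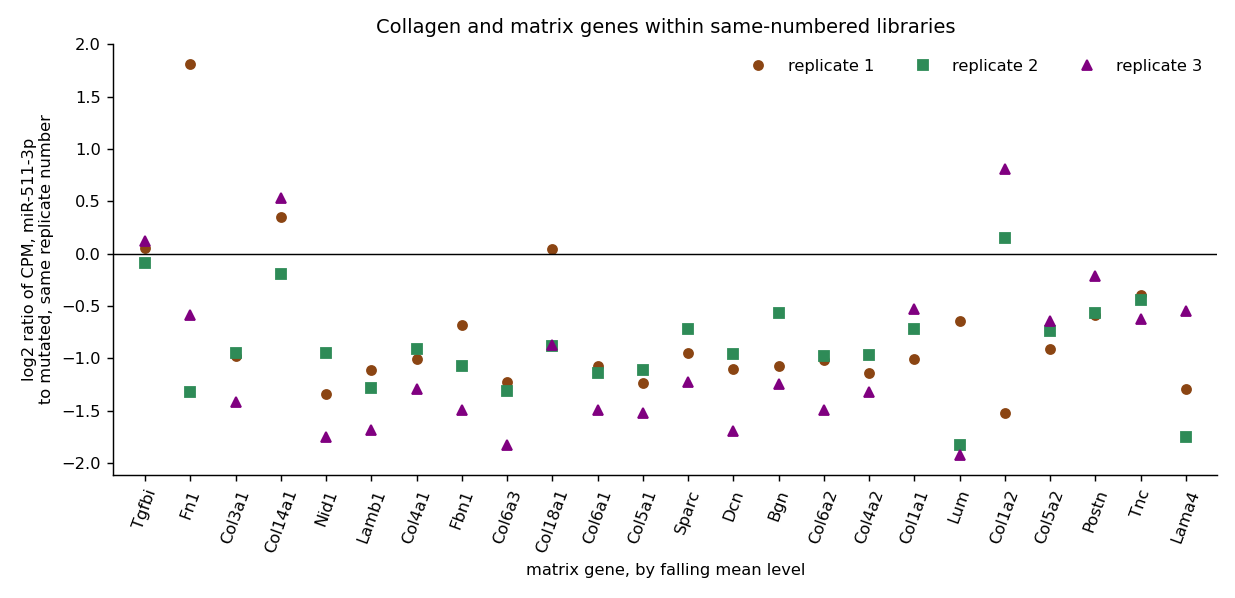
Log2 ratio of CPM, miR-511-3p to mutated library of the same replicate number, for the 24 collagen and matrix genes in order of falling mean level. In 19 genes all 3 ratios were below 0; Tgfbi, Fn1, Col14a1, Col18a1 and Col1a2 had a ratio above 0 in 1 or more of the 3.

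Markers of other cells also differed between libraries. T and NK cell markers summed to 13.9, 9.49 and 20.5 CPM under miR-511-3p and 18.7, 24.1 and 39.2 CPM under the mutated form, with Ncr1 at 0 reads in 3 of the 6 libraries. All 6 measured of that list of 11 were below 0, beside 48.7% of all genes, with a median of -1.57, and -0.79 without mutated replicate 3. Within same-numbered libraries 4, 3 and 5 of the 6 were lower. Only 1 was lower in all 3 pairs, 16.7%, beside 13.3% of all genes. Levels were low, and the share of all genes is not matched for level. Cd8a, Klrb1c, Nkg7 and Gzmb averaged 0.44, 0.35, 0.33 and 0.70 CPM under miR-511-3p. Neutrophil markers spanned 69.7 to 86.1 CPM and 62.6 to 144 CPM, with Elane at 0 reads in 5 of the 6 libraries, and their median of -1.04 became 0.46 without mutated replicate 3. Epithelial and carcinoma markers summed to 17.2 to 29.4 CPM and 20.3 to 46.5 CPM, with Cldn4 at 0 reads in all 6 libraries. The median of the 4 measured was -0.88, and -0.33 without mutated replicate 3. Y-linked genes, whose level depends on the sex of the cells, summed to 1.07 to 2.87 CPM under miR-511-3p, to 1.22 and 1.87 CPM in mutated replicates 1 and 2, and to 10.3 CPM in mutated replicate 3. Erythroid markers were highest in the third library of each group, at 2.66, 1.29 and 12.3 CPM against 6.60, 2.70 and 17.6 CPM. B cell markers spanned 63.2 to 132 CPM and 61.9 to 119 CPM, eosinophil and mast cell markers 6.99 to 15.5 CPM and 8.11 to 10.8 CPM, and muscle markers 2.15 to 2.43 CPM and 1.43 to 2.08 CPM. Adipocyte markers were at or near 0 throughout, up to 0.074 CPM. The part of these cells in the results was not tested.

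Markers of M2-like and perivascular macrophages lay mostly above 0. Of 21 measured, 18 were above 0 under miR-511-3p, beside 51.3% of all genes, with a median of 0.21, and 16 with a median of 0.18 without mutated replicate 3. The third pair did not share this, with 10 of the 21 lower and a median of 0.05, beside 0.31 and 0.28 in the first and second. On average the list was highest in miR-511-3p replicate 1 and lowest in miR-511-3p replicate 3, at 0.46 and -0.25 from the mean of its genes. Mrc1 and Retnla had an edgeR unadjusted p under 0.05, beside 0.583% of all genes in the higher direction, and none was called. Retnla, a secreted protein induced by interleukin-4, was at 59.0, 8.35 and 5.86 CPM against 8.21, 5.21 and 1.96 CPM, so its log2 difference of 2.23 ± 0.95 (SE) rests on miR-511-3p replicate 1 and was 0.46 without it. Il10, an anti-inflammatory cytokine, was at 14.7, 29.7 and 19.6 CPM against 17.1, 13.8 and 15.9 CPM, and F13a1, a coagulation factor of tissue macrophages, at 405, 703 and 430 CPM against 283, 415 and 532 CPM. Both overlapped between the groups. The list's summed level, 7056 to 10128 CPM and 7017 to 8094 CPM, overlapped as well.

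Genes of MHC class II antigen presentation lay below 0 in 9 of 10, beside 48.7% of all genes, with a median of -0.14. Without mutated replicate 3 they lay below 0 in 10 of 10, beside 50.8% of all genes, with a median of -0.13. Of the 10, 5 were lower in all 3 same-numbered pairs, 50%, beside 13.3% of all genes. The libraries numbered 1 did not share the difference, with 5 of the 10 lower under miR-511-3p and a median of 0.009. Between those numbered 2 and those numbered 3, 10 and 9 were lower, with medians of -0.318 and -0.113. H2-Ob, a subunit of the H2-O complex that restrains peptide loading, was at 12.2, 11.5 and 14.6 CPM under miR-511-3p and 14.9, 15.9 and 17.0 CPM under the mutated form, with no overlap. Ciita, the master activator of class II genes, was at 153, 168 and 183 CPM against 162, 210 and 218 CPM, and H2-Ab1, a class II chain, at 1552, 1697 and 1729 CPM against 1640, 2151 and 1904 CPM. Both overlapped, and no gene was called. Without mutated replicate 2 the list's median was -0.06.

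Cell cycle genes were above 0 in 21 of 21, beside 51.3% of all genes, with a median of 0.16. Without mutated replicate 3 the count was again 21 of 21, beside 49.2% of all genes, with a median of 0.17. With all 6 libraries 0 reached an unadjusted p under 0.05. The difference rested on mutated replicate 2, the lowest library for these genes, without which the median was 0.05. In the first pair 15 of the 21 were lower under miR-511-3p, with a median of -0.04. Aurkb, a mitotic kinase, was at 47.5, 49.6 and 49.1 CPM against 46.0, 34.7 and 44.9 CPM, and Mcm5, a subunit of the replicative helicase, at 129, 144 and 138 CPM against 132, 102 and 121 CPM. The first of these separated the groups and the second did not.

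Interferon-stimulated genes turned on the same library. With 6 libraries 14 of 19 were above 0, beside 51.3% of all genes, with a median of 0.03 beside 0.003. With mutated replicate 2 left out the median was -0.21. Without mutated replicate 3 it was 0.09, with 19 of 19 above 0. Oasl1, an interferon-induced member of the oligoadenylate synthetase family, was at 44.2, 51.1 and 49.7 CPM under miR-511-3p and 60.4, 24.0 and 37.0 CPM under the mutated form, with the mutated libraries on both sides. Rsad2, the antiviral protein viperin, was at 109, 134 and 147 CPM against 155, 62.2 and 146 CPM. All 19 were lower under miR-511-3p in the first pair and none was in the second.

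Immediate-early and heat shock genes, which cells switch on quickly after a stimulus, were above 0 in 18 of 21, beside 51.3% of all genes. Their median was 0.14, and 0.17 without mutated replicate 3. Egr2 belongs to this list and was its only member of 21 whose groups did not overlap, beside 2.79% of all genes in the higher direction. Zfp36, which destabilises cytokine messengers, was at 814, 939 and 770 CPM against 708, 787 and 715 CPM, Fosb, a subunit of the AP-1 factor, at 630, 941 and 649 CPM against 550, 606 and 762.1 CPM, and Atf3, a stress-induced factor, at 335, 420 and 362 CPM against 335, 282 and 374 CPM. These 3 overlapped, and miR-511-3p replicate 2 was the highest library for each. Without it the median of the list was 0.02.

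Inflammatory cytokines and enzymes were above 0 in 10 of 17, beside 51.3% of all genes, with a median of 0.07, and 0.03 without mutated replicate 3. Ccl3, a chemokine that draws leukocytes, was at 125, 151 and 114 CPM under miR-511-3p and 116, 95.6 and 93.9 CPM under the mutated form, a log2 difference of 0.35 ± 0.13 (SE). Tnf, a central inflammatory cytokine, was at 238, 247 and 163 CPM against 203, 154 and 133 CPM, and the groups of both genes overlapped. The neighbouring chemokine Ccl4 differed by 0.33, and Ccl5, which draws T cells, was at 8.84 to 10.5 CPM and 6.14 to 13.6 CPM. Only Ccl3 of the 17 had an edgeR unadjusted p under 0.05, beside 0.583% of all genes in the higher direction.

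Genes of TGF-beta signalling were below 0 in 10 of 14, beside 48.7% of all genes. Their median of -0.03 was close to the 0.003 of all genes. Without mutated replicate 3 they were below 0 in 12 of 14, beside 50.8%, with a median of -0.085. Ltbp3, which tethers latent TGF-beta to the matrix, was at 9.22, 13.3 and 14.9 CPM under miR-511-3p and 15.1, 16.9 and 25.9 CPM under the mutated form, with no overlap. Its log2 difference was -0.62 with an edgeR unadjusted p of 0.0393, and -0.35 with p of 0.128 without mutated replicate 3. Its relative Ltbp1 was at 4.57, 4.25 and 11.6 CPM against 11.8, 8.51 and 36.1 CPM, the order of libraries seen for the matrix genes, and its difference went from -1.46 to -0.57 without that library. The ligand Tgfb3 was at 23.8, 32.3 and 35.9 CPM against 22.4, 24.6 and 44.3 CPM, with mutated replicate 3 the highest library.

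Matrix proteases and inhibitors split, with 6 of 17 above 0 and 11 below, and a median of -0.11. Mmp19, described above, lay at one end, and Mmp3, the stromal protease stromelysin, at the other, with 4.05, 2.48 and 7.18 CPM against 8.78, 7.28 and 18.4 CPM and no overlap. The log2 difference of Mmp3 was -1.33, and -0.81 without mutated replicate 3. Loxl2, an enzyme that crosslinks collagen, was at 8.53, 9.59 and 24.8 CPM against 23.1, 16.9 and 61.7 CPM, a difference of -1.24, and -0.48 without that library. In the dendritic cell list 11 of 14 were below 0, beside 48.7% of all genes, with a median of -0.14. In the lower direction 2 had an edgeR unadjusted p under 0.05, beside 1.86% of all genes. Without mutated replicate 3, 9 were below 0, beside 50.8% of all genes, the median was -0.04 and 0 reached that p. Below 0 were Fscn1, an actin-bundling protein, at 9.40, 6.21 and 13.5 CPM against 15.1, 13.9 and 29.4 CPM, and Cacnb3, a calcium channel subunit, at under 2 CPM. The log2 difference of Fscn1 was -1.001, and -0.58 without mutated replicate 3. Irf4 and Batf3, transcription factors of dendritic cells, lay above 0, at 0.44 and 0.40. Of the 14 genes of microRNA processing and silencing, 6 were above 0 and 8 below, with a median of -0.01. Tarbp2, a partner of Dicer, was at 15.3, 15.1 and 15.0 CPM against 13.5, 11.1 and 13.9 CPM, while the nuclease Drosha and the GW182 gene Tnrc6a overlapped.

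**Figure D5:**
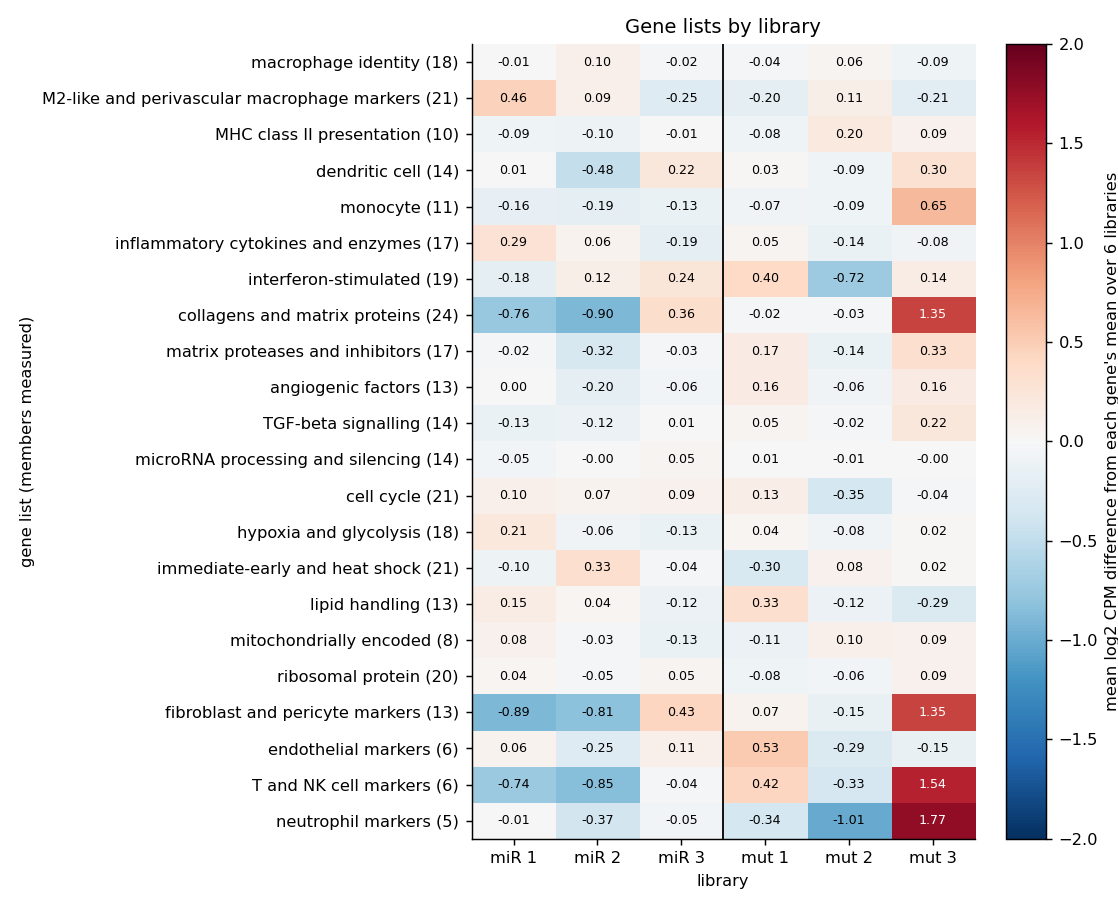
Mean log2 CPM difference of the members of each gene list from their own mean over the 6 libraries, for 22 lists with 5 or more measured members (their number in brackets), with miR-511-3p libraries left and mutated libraries right of the line. Matrix and fibroblast genes were highest in mutated replicate 3 and, within the miR-511-3p group, in replicate 3, and interferon-stimulated and cell cycle genes were lowest in mutated replicate 2.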

How the data were processed

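The authors deposited raw counts, as whole numbers of reads for each Ensembl gene, in a table for every library. Libraries followed the Illumina TruSeq RNA protocol, per the labels' protocols. Bowtie, TopHat 1.2.0, SAMtools 0.1.12a, HTSeq and the build mm9 (NCBIM37) are named in the submitters' processing notes. The assignment of reads, and any use of strand, was not given in the sources used here. Overlapping and antisense genes therefore cannot be separated. Each table held 36439 genes and 5 summary entries, which were left out. In the 6 libraries compared, reads over no gene were 7.64% to 10.4% and reads aligned to several places 12.8% to 13.3%.

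Groups came from the titles. Groups were compared on the counts with edgeR 4.0.16 (quasi-likelihood test; R 4.3.3), after filterByExpr and TMM scaling; p-values were adjusted by Benjamini-Hochberg over all genes tested, with a threshold of 0.05. It was run on 6 libraries and on 5, without mutated replicate 3. Standard errors are the log2 fold change over the root of the F value. No 2 libraries of a group agreed within sampling noise (chi-square per degree of freedom 14.7 to 24.6). Deviations of same-numbered libraries correlated across genes at 0.147, 0.258 and 0.462, all above 0.1. The numbers were therefore treated as pairs, but only in the replicate block and in the values within same-numbered libraries. The main edgeR fits held no pairing. The pairing rests on the data, since the labels name no shared animal or day. For replicate 1 it is weak, as miR-511-3p replicate 1 correlated slightly better with mutated replicate 2, at 0.166. Alternatives were DESeq2 1.42.0, voom of limma 3.58.1 with quality weights, other scalings and filters, the replicate block, all 4 groups in 1 fit, each library left out and, added later, a fibroblast covariate. The steps were tested on simulated data.

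Symbols and 3′ UTRs of at least 20 bases (20952 genes, each beginning right after a stop codon) came from GENCODE M21 on GRCm38, and the microRNA from RefSeq. As that build is later than the files', no gene coordinates are given but those of the microRNA and its hairpin. Those positions are on GRCm38.p6, not on mm9. Symbols were found for 31819 identifiers.

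The comparison, the 30 gene lists and the tests were chosen with earlier results of these data known. Named genes were Mir511, Mrc1, Rock2, Adgre1, Csf1r and Itgax, the 10 of lowest p in each direction with 6 and with 5 libraries (5 CPM or more in the higher group), up to 4 members of lowest p in each list described, and the 5 of lowest p in each direction among 8mer genes. Which lists were described member by member was settled after their values were seen, as were Hspg2, Bcl2, Hmox1, Fn1, Tgfbi and other genes said to be. A few genes and a list that these rules name are not reported here. List and site-class values are descriptions with no test.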

Additional observations from a re-analysis of the deposited data

How the results depend on the processing

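No gene was called in 12 of the 15 alternatives with 6 libraries and 13 of the 14 with 5. The exceptions with 6 were DESeq2 (1, Mir511), all 4 groups in 1 fit (1, Mir511) and the replicate block (1, Hspg2), and with 5 DESeq2 (11). Leaving out each library in turn gave 0 to 0 calls in both. The Mir511 ratio per Mrc1 read, 9.983, had the same direction and permutation p.

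The direction of some genes that were not called turned. With libraries left out in turn, log2 differences ranged from -0.023 to 0.108 for Csf1r, -0.390 to 0.380 for Itgax, -0.556 to 0.694 for Myl9, -0.245 to 0.306 for Ccl5, -0.171 to 0.387 for Tgfb3, -1.680 to 0.286 for Eif2s3y and -0.245 to 2.416 for Bcl2. The ranges of Oas2, Oasl1, Rsad2 and Oas1a were -0.045 to 0.385, -0.011 to 0.660, -0.211 to 0.314 and -0.003 to 0.274, each lowest without mutated replicate 2. With the fibroblast covariate Csf1r was at -0.021, Myl9 at 0.852, Ccl5 at 0.340, Eif2s3y at 0.374 and Hmox1 at -0.101. Voom gave 0.150 for Myl9 and 0.068 for Ccl5, and Ccl5 was at 0.003 with no filter and 0.054 with the replicate block. The other 1506 values of named genes kept their direction. The causes were not tested. With 17 Mir511 reads in all mutated libraries, counting error alone placed its ratio per counted read between 7.32 and 21.0. The spread between libraries is not in that interval.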

Other observations

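The B-cell leukaemia gene Bcl2, an inhibitor of cell death, was at 226 CPM in miR-511-3p replicate 1 and at 18.3 to 23.9 CPM in the other 5 libraries. The same library also had the highest Slc7a2, a transporter of arginine, at 590 CPM against 27.7 to 136 CPM, and the highest Pdcd1lg2, a ligand of the PD-1 receptor, at 28.3 CPM against 4.28 to 12.1 CPM. In mutated replicate 2, Gm10451 was at 7.28 CPM against 0.263 to 0.683 CPM elsewhere. These genes were named after their values were seen.

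Hmox1, the haem-degrading enzyme haem oxygenase 1, was at 1576, 1401 and 668 CPM under miR-511-3p and 922, 1004 and 538 CPM under the mutated form. Slc48a1, a haem transporter, was at 196, 176 and 114 CPM against 148, 150 and 95.6 CPM, and Gclm, a subunit of the enzyme that starts glutathione synthesis, at 106, 101 and 56.9 CPM against 82.3, 76.6 and 46.8 CPM. In each, the miR-511-3p library was the higher within its number, as it was in 1633 genes, 11.6% of all genes tested. The third library was the lowest of its group. These 3 genes were named after their values were seen. The groups overlapped, and no blocked fit called them.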
